A study of Arabidopsis thaliana with 8 samples.

Results

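HRD (HARDY, AT2G36450) encodes an AP2/ERF transcription factor of the DREB group, and its transcript level was examined in Arabidopsis stems together with those of 9 related genes of the same DREB subgroup. HRD was selected on a measured value, namely its fall in stems of an F5H overexpressor. The other 9 genes are part of the subgroup, not all of it, and were chosen with earlier results of these data known. Of these 10 genes, 9 had a probe set that the array annotation pairs with that gene and no other, out of 13355 genes so represented on the array. AT2G35700 (ERF38) had none and was not analysed here. The samples were pools of inflorescence stems of ecotype Columbia-0, harvested at 1.5 months of age with 5 plants in each pool, and each pool was hybridised to 1 array. There were 3 arrays of a line labelled as overexpressing ferulate/coniferaldehyde 5-hydroxylase (F5H-OE), 2 of fah-1, labelled as the F5H loss-of-function line, and 3 of wild type (WT). F5H is the cytochrome P450 enzyme that directs monolignols towards syringyl lignin. No source used here gives the promoter that drives F5H in the overexpressor or the number of independent lines. F5H itself had no probe set of its own name by which to check either label. The annotation gave no gene for 8730 of 22746 probe sets, so a gene without a named probe set may still be on the array. The design text speaks of 3 replicates a group, and 2 fah-1 arrays were analysed here.

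AP2/ERF factors bind DNA through the AP2 domain, and DREB proteins recognise the dehydration-responsive element (DRE, also called C-repeat) found in promoters of many genes of drought and cold responses. HRD is known from an Arabidopsis line in which the gene was activated, with thick leaves and tolerance of drought and salt, and from rice, where its overexpression improved water-use efficiency. The subgroup to which it belongs, A-4, also holds TINY, whose activation in Arabidopsis reduces growth, and several of its members can promote primary-type cell walls in Arabidopsis fibres. Its members are thus of interest in a stem, where fibres and vessels lay down lignified secondary walls.

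The median intensities of the arrays were 112 to 118, which the submitters' normalization (RMA) had already made alike. F5H-OE replicate 1 stood apart. The mean correlation of its log2 values with its group was 0.987, against 0.991 to 0.997 for the other arrays. Its GAPDH controls, which report RNA quality, differed by 1.47 (log2) between 3′ and 5′ probe sets, against 0.51 to 0.85 elsewhere. Several results that use it are given with and without it. Of 8 stem secondary wall genes, 4 could be named (IRX10, IRX15, IRX15-L and HCT), and all were far above the highest TrpnX control probe set (intensity 12.5 to 15.2 over the arrays), a bacterial sequence used here as the background level. No flower, silique or root marker on the list could be named. In such pooled tissue, fewer cells of a type and less RNA per cell cannot be told apart.

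HRD was lower in every F5H-OE array than in any other array. Its intensity was 94.1, 44.3 and 51.3 in F5H-OE replicates 1, 2 and 3, against 554 and 525 in fah-1 and 471, 237 and 397 in WT. The highest F5H-OE array thus lay below the lowest WT array, which was replicate 2. The means were 63.2 ± 26.95 (SD, n = 3) in F5H-OE, 540 ± 20.8 (SD, n = 2) in fah-1 and 369 ± 120 (SD, n = 3) in WT. The log2 fold change in F5H-OE was -2.57 against WT, or 5.92-fold lower, and -3.17 against fah-1, or 9.02-fold lower. Without F5H-OE replicate 1 these log2 fold changes were -2.89 and -3.50. Because HRD was chosen by its low values on the F5H-OE arrays, which both comparisons use, the values are a description and carry no test. SWEET11, a sucrose exporter of phloem cells and the 1 measured of 2 phloem markers, had a log2 fold change in F5H-OE against WT of -1.90 (limma adjusted p = 0.26), and of -2.89 without F5H-OE replicate 1 (adjusted p = 0.0049). Unlike HRD, it was within the WT range on F5H-OE replicate 1, and the part of phloem content in the values of HRD was not tested. All 8 arrays were above the background level for HRD, so its fold changes are not bounds. The order of the group means was F5H-OE, WT and fah-1 from low to high.

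**Figure D1:**
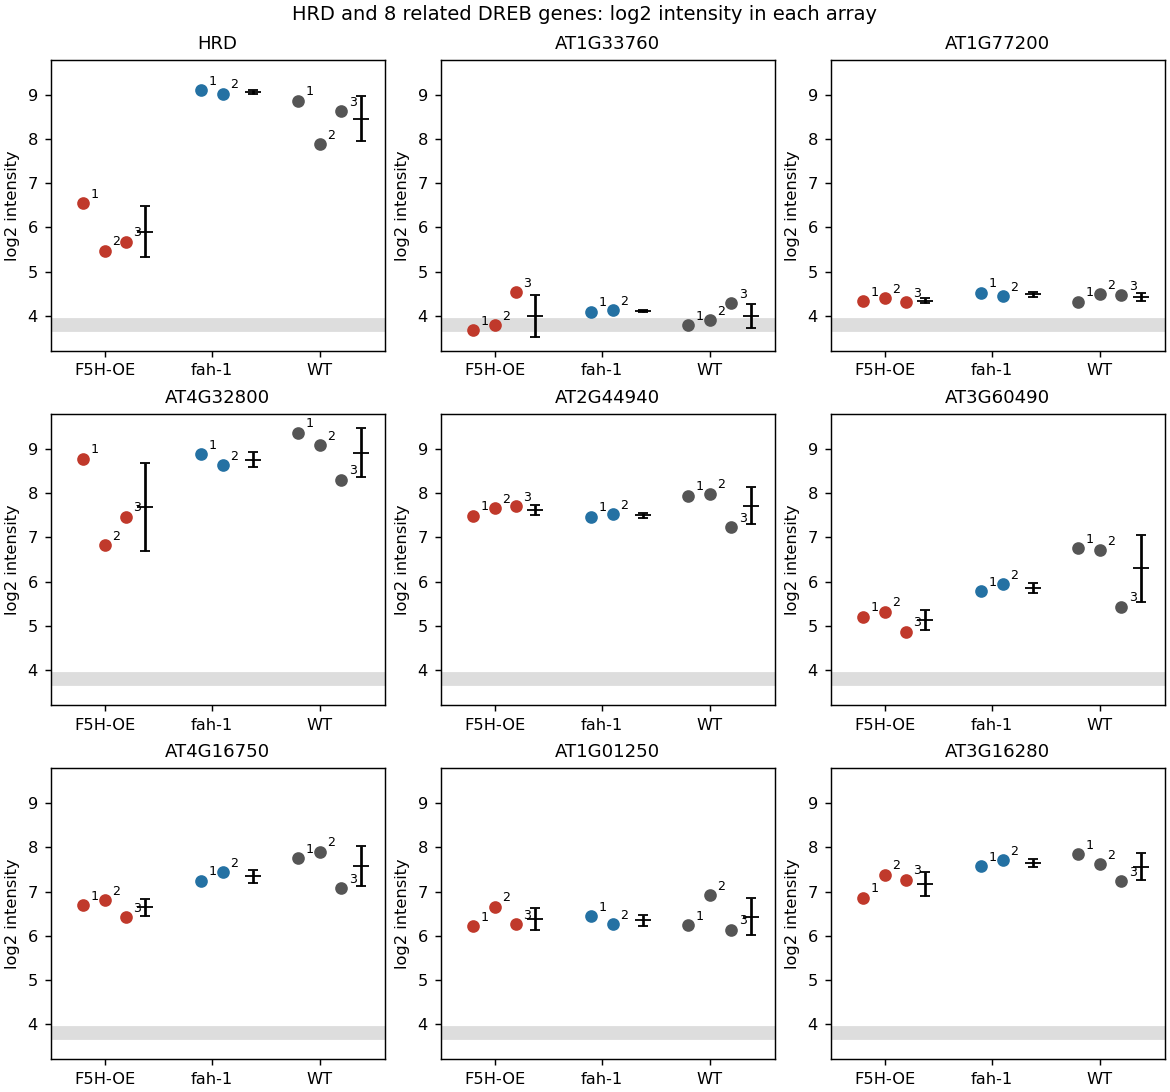
Log2 intensity (vertical axis) of HRD and the 8 other measured genes in the F5H-OE, fah-1 and WT arrays; each point is 1 array with its replicate number, the black bar is the mean ± SD of the group, and the grey band is the range of the highest TrpnX control probe set over the arrays. HRD lies between 5.47 and 6.56 in F5H-OE and between 7.89 and 9.11 in the other arrays.

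The stated ground for choosing HRD was its fall in F5H-OE, which does not name fah-1. Whether the fah-1 or WT arrays also entered that choice is not known. HRD did not pass the test in fah-1 against WT. Both fah-1 arrays lay above all 3 WT arrays, an arrangement that 8.58% of all probe sets shared. The log2 fold change of fah-1 against WT was 0.61 ± 0.36 (SE, limma adjusted p = 0.97), with a 95% interval of -0.21 to 1.42 that includes both no change and a rise of more than 2-fold. The SD between arrays was 0.06 (log2) in fah-1 and 0.52 in WT. Without WT replicate 2, the lowest of the WT arrays for HRD, the log2 fold change was 0.32.

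Of the 8 other measured genes, 0 passed limma's test in F5H-OE against WT at an adjusted p under 0.05, where 603 of 22746 probe sets (2.65%) did. At an unadjusted p under 0.05 there were 3, all lower in F5H-OE, against 3989 of 22746 probe sets, 2127 of them lower. These were AT4G16750, AT3G60490 and AT4G32800. Log2 fold changes were below 0 for 7 of the 8 genes, as for 55.9% of all probe sets. Their median was -0.25, against -0.02 over all probe sets, and it was -0.15 without F5H-OE replicate 1 and -0.45 without WT replicate 3. Without F5H-OE replicate 1, AT1G33760 and AT1G01250 were above 0, at 0.16 and 0.03.

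AT4G16750 came closest to the threshold. Its intensity was 104, 111 and 85.9 in F5H-OE, against 151 and 174 in fah-1 and 217, 240 and 135 in WT. Every F5H-OE array was below every array of both other groups. The log2 fold change in F5H-OE against WT was -0.94 ± 0.21 (SE, adjusted p = 0.060, 95% interval -1.42 to -0.46). It passed without F5H-OE replicate 1 (-0.97, adjusted p = 0.047), where 7.73% of all probe sets passed, and without WT replicate 3 (-1.19, adjusted p = 0.010), where 1.24% passed. Over 18 alternative settings it passed in 6, with adjusted p of 0.010 to 0.21. The sign was the same in all of them, but several settings could not have altered it. The filters on dim probe sets, for example, leave this log2 fold change as it was, and so does leaving out a fah-1 array.

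AT3G60490 showed a similar arrangement with more spread in WT. Its intensity was 36.9, 39.7 and 29.1 in F5H-OE, against 54.9 and 61.6 in fah-1 and 109, 105 and 43.1 in WT. The F5H-OE arrays again lay below all others, but WT replicate 3 was closer to them than to the other WT arrays. The log2 fold change in F5H-OE against WT was -1.17 ± 0.33 (SE, adjusted p = 0.12), and it passed without WT replicate 3 (-1.61, adjusted p = 0.0041). It did not pass without F5H-OE replicate 1 (-1.21, adjusted p = 0.092). AT4G16750 and AT3G60490 were the 2 of the 8 genes with no overlap between F5H-OE and WT in this direction, which 11.7% of all probe sets also showed.

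AT4G32800 varied most among the F5H-OE arrays of the 8 genes. Its intensity was 443 in F5H-OE replicate 1, within the WT range, but 113 and 178 in replicates 2 and 3, against 474 and 401 in fah-1 and 667, 547 and 317 in WT. Over all 3 F5H-OE arrays the log2 fold change from WT was -1.23 ± 0.47 (SE, adjusted p = 0.23). It was -1.78 and passed (adjusted p = 0.013) when F5H-OE replicate 1 was left out, and -0.80 (adjusted p = 0.45) when F5H-OE replicate 2 was left out. SWEET11 was likewise low on F5H-OE replicates 2 and 3, at 576, 58.7 and 90.4 in F5H-OE, against 528 and 619 in fah-1 and 312, 552 and 916 in WT. Among the WT arrays the order of the genes differed, with replicate 3 highest for SWEET11 and lowest for AT4G32800. The part of phloem content in the values of AT4G32800 was not tested. With array weights, which weighted F5H-OE replicate 1 least, AT4G16750, AT3G60490 and AT4G32800 all passed as lower in F5H-OE than in WT (adjusted p 0.012 to 0.021). In that setting 11.1% of all probe sets passed, counted in either direction.

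The remaining 5 genes stood closer to WT in F5H-OE. AT3G16280 had intensities of 116, 166 and 155 in F5H-OE, against 191 and 209 in fah-1 and 230, 197 and 150 in WT. Its F5H-OE and WT values thus overlapped (log2 fold change -0.39 ± 0.18, SE, adjusted p = 0.31). Without F5H-OE replicate 1 its log2 fold change was -0.24 (adjusted p = 0.45). AT2G44940 had 180, 202 and 210 in F5H-OE, against 177 and 186 in fah-1 and 247, 255 and 150 in WT, with the F5H-OE arrays inside the WT range (log2 fold change -0.10, adjusted p = 0.83). WT replicate 3 alone set the low end of that range. The log2 fold change was -0.35 without WT replicate 3 (adjusted p = 0.16) and 0.03 without WT replicate 2. For AT1G01250 the intensities were 74.0, 101 and 76.3 in F5H-OE, against 86.7 and 76.2 in fah-1 and 75.2, 121 and 70.4 in WT, again overlapping (log2 fold change -0.06). AT1G77200 lay between 19.7 and 22.9 on all 8 arrays, near the background level, with a log2 fold change of -0.08 and the narrowest 95% interval of the 8 (-0.25 to 0.09). AT1G33760 was the dimmest, with intensities of 12.7, 13.7 and 23.1 in F5H-OE, against 17.04 and 17.37 in fah-1 and 13.8, 14.9 and 19.5 in WT. It was above the background level on 2 of the 3 F5H-OE arrays, and its log2 fold change of 0.002 is not informative about a change in a transcript that dim. In the fit of all 8 arrays the intervals of AT2G44940 and AT1G01250 reached -0.54, so a fall of the size seen there for AT4G16750 lies outside them.

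**Figure D2:**
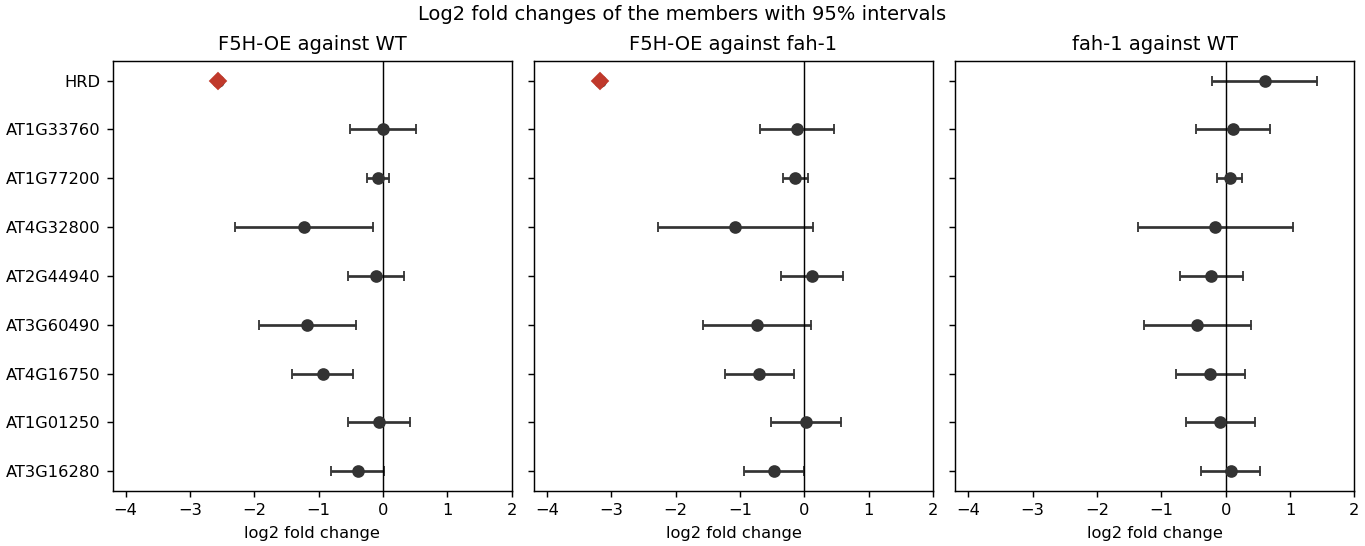
Log2 fold changes (horizontal axis) of the 9 measured genes in F5H-OE against WT, F5H-OE against fah-1 and fah-1 against WT; points are limma estimates and bars their 95% intervals, and HRD is drawn as a red diamond without an interval in the comparisons that use the F5H-OE arrays by which it was chosen. In F5H-OE against WT, AT4G32800, AT3G60490 and AT4G16750 lie at -1.23, -1.17 and -0.94 and the other 5 between -0.39 and 0.002.

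The WT arrays differed in how many of the genes they held low. WT replicate 3 held the lowest WT value for 6 of the 9 genes, where it was the lowest of the WT arrays for 29.5% of all probe sets. The 6 were AT4G32800, AT2G44940, AT3G60490, AT4G16750, AT1G01250 and AT3G16280. HRD did not take part: its lowest WT array was replicate 2, and replicate 3 stood at 397, between the others. WT replicates 1 and 2 were lowest for 2 and 1 of the 9 genes, and for 46.6% and 23.8% of all probe sets. Among the F5H-OE arrays, replicates 1, 2 and 3 were lowest for 4, 2 and 3 of the 9 genes, and for 46.4%, 26.8% and 26.8% of all probe sets.

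**Figure D3:**
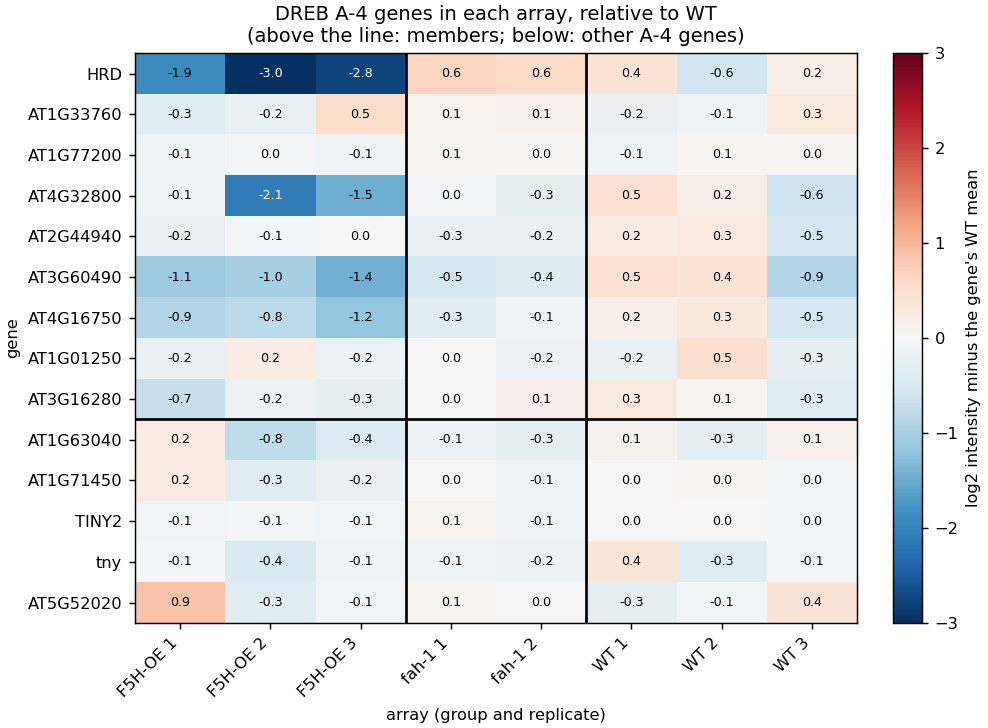
Log2 intensity of each A-4 gene minus its WT mean (colour and printed value) in each array (columns, by group and replicate), for the 9 members above the line and 5 other A-4 genes below it. HRD is between -3.0 and -1.9 in F5H-OE and AT4G32800 reaches -2.1 in F5H-OE replicate 2, while the rows below the line stay between -0.8 and 0.9.

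In fah-1 against WT, 0 of the 9 genes passed limma's test, where 2 of 22746 probe sets (0.00879%) passed. At an unadjusted p under 0.05 there were 0 of the 9, against 1142 of 22746 probe sets. Of the 4 named wall genes, IRX10, IRX15 and IRX15-L had both fah-1 arrays below all WT arrays, with log2 fold changes of -0.55, -0.46 and -0.34 (limma adjusted p 0.90 to 0.97). HCT was at 0.03, and the part of wall-forming tissue in the members' values was not tested. AT3G60490 had the log2 fold change farthest below 0, -0.44 ± 0.36 (SE), followed by AT4G16750 at -0.24, AT2G44940 at -0.22 and AT4G32800 at -0.16. No gene had both fah-1 arrays below all WT arrays, which 14.9% of all probe sets did. The median over the 8 genes other than HRD was -0.12, against -0.02 over all probe sets, and it was -0.35 without WT replicate 3 and -0.003 without WT replicate 2. AT1G33760 was at 0.12, AT3G16280 at 0.08, AT1G77200 at 0.06 and AT1G01250 at -0.08.

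F5H-OE set against fah-1 uses the same F5H-OE arrays as F5H-OE set against WT. Of the 8 genes other than HRD, 0 passed limma's test there, where 449 probe sets (1.97%) passed. At an unadjusted p under 0.05 there were 2 of the 8, against 3575 of 22746 probe sets. AT4G16750 had a log2 fold change of -0.70 ± 0.23 (SE, adjusted p = 0.20), AT3G60490 of -0.74 (adjusted p = 0.38), AT3G16280 of -0.47 (adjusted p = 0.31) and AT4G32800 of -1.07 (adjusted p = 0.37). In AT4G16750, AT3G60490, AT3G16280 and AT1G77200 every F5H-OE array lay below both fah-1 arrays, 4 of 8 genes, where 18.9% of all probe sets did so. AT4G32800 passed without F5H-OE replicate 1 (-1.62, adjusted p = 0.029), where 6.83% of all probe sets passed. With array weights AT4G32800 and AT4G16750 passed, where 12.7% of all probe sets passed. The wall genes IRX10, IRX15 and IRX15-L were higher in every F5H-OE array than in both fah-1 arrays, and IRX10 passed (log2 fold change 0.64, adjusted p = 0.038), while HCT was at 0.04. Their part in the members' values was again not tested.

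Of 6 further genes of subgroup A-4, 5 were measured, among them TINY (tny) and TINY2, and 0 passed by limma in any comparison, with 0 at an unadjusted p under 0.05. In F5H-OE against WT their log2 fold changes were -0.30 to 0.14 with a median of -0.09. Without F5H-OE replicate 1 all 5 were below 0, at -0.57 to -0.07 with a median of -0.26, and 0 passed. AT1G63040 was lowest, at intensities of 51.9, 26.1 and 33.9 in F5H-OE, against 39.8 and 35.9 in fah-1 and 48.2, 36.7 and 48.3 in WT, and TINY was at -0.21 ± 0.17 (SE).

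Of the listed AP2/ERF genes outside the A-4 subgroup, 20 could be measured, and 0 passed in any comparison by limma. The lists do not cover the whole family. Measured were 3 of 9 listed genes of A-2 and A-3, 6 of 15 of A-5, 6 of 10 of A-6 and 5 of 48 of the ERF (B) subfamily. None of the 6 listed CBF genes of subgroup A-1, the main regulators of cold acclimation, had a probe set of its own name. Among 3 genes of A-2 and A-3, the groups of DREB2A and ABI4, the log2 fold changes farthest from 0 in F5H-OE against WT were 0.19 for AT3G57600 and -0.16 for AT5G18450. Among 5 of the ERF (B) subfamily they were -0.22 for SHN3, a regulator of cuticle formation, and -0.11 for LEP, a factor of leaf petiole development. The A-6 genes numbered 6, with AT1G36060 at 0.44 and AT2G22200 at -0.23 and a median of -0.10, which was -0.37 without F5H-OE replicate 1.

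Subgroup A-5, with 6 measured genes, held the log2 fold change farthest from 0 among these 20, that of ORA47, a jasmonate-responsive factor that activates jasmonate synthesis. Its intensity was 132, 53.4 and 52.9 in F5H-OE, against 162 and 207 in fah-1 and 174, 141 and 104 in WT. F5H-OE replicate 1 lay inside the WT range and the other F5H-OE arrays below it. The log2 fold change from WT was -0.93 ± 0.35 (SE, adjusted p = 0.23), and with replicate 1 of F5H-OE left out it was -1.36 (adjusted p = 0.0068). SWEET11 was again low on the same 2 arrays, and the part of phloem content in ORA47's values was not tested. AT1G77640 was at 0.66, through 1 array: 23.5, 21.3 and 67.0 in F5H-OE, against 25.4 and 21.8 in fah-1 and 17.6, 22.3 and 21.7 in WT.

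Without F5H-OE replicate 1, 4 genes of the other lists passed in F5H-OE against WT. Besides ORA47 these were AT1G36060 at 0.80 and AT1G64380 and AT4G39780 at -0.65 and -0.49 (log2 fold changes), all 3 of subgroup A-6. AT1G64380 had intensities of 209, 72.9 and 70.2 in F5H-OE, against 124 and 134 in fah-1 and 109, 99.9 and 130 in WT. Replicate 1 was thus above the WT range and replicates 2 and 3 below it. The share of all probe sets that passed in this setting was 7.73%, as above.

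**Figure D4:**
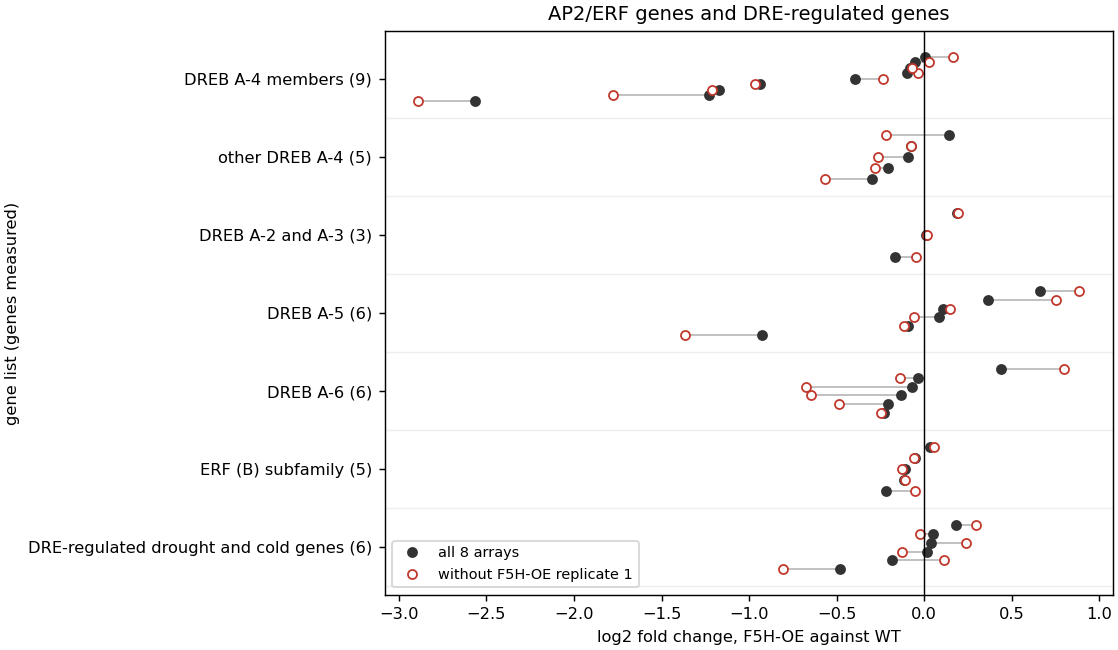
Log2 fold change in F5H-OE against WT (horizontal axis) for each measured gene of the members, the other AP2/ERF lists and the DRE-regulated genes (rows, with the number of genes measured); filled points use all 8 arrays, open points leave out F5H-OE replicate 1, and a line joins the points of a gene. With all arrays the members reach -2.57 (HRD), and the genes of the other lists lie between -0.93 and 0.66.

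Genes listed as regulated through the DRE, the element that DREB proteins bind, did not pass the test in F5H-OE. Their promoters were not examined here. Of 20 listed drought and cold genes 6 were measured, and 0 passed by limma in any comparison, with 0 at an unadjusted p under 0.05. Their median log2 fold change in F5H-OE against WT was 0.03, with LTI30, a dehydrin, at -0.48 ± 0.33 (SE) and COR15B, a chloroplast protein of cold acclimation, at 0.18 ± 0.16 (SE). Without F5H-OE replicate 1 LTI30 was at -0.81 (adjusted p = 0.12) and COR15B at 0.30 (adjusted p = 0.32). LTI30 had intensities of 8131, 3642 and 4733 in F5H-OE, against 5632 and 6807 in fah-1 and 10280, 4982 and 7450 in WT, overlapping throughout. COR15A, COR47 and DI21 lay at -0.18, 0.02 and 0.04. Whether HRD acts on any of these genes in stems was not tested.

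The genes whose values followed HRD most closely over the 8 arrays were AT2G14080, AT5G44580, AT1G17960, AT5G39090 and AT5G19250, with Pearson r of 0.97 to 0.98 on log2 values among 11099 genes above the background level. The points share groups, so r mostly reflects the separation of F5H-OE from the other arrays, and 117 genes had r above 0.9. All 5 were lower in every F5H-OE array than in every other array. AT5G44580 had intensities of 395, 197 and 271 in F5H-OE, against 988 and 929 in fah-1 and 832, 778 and 961 in WT. Its F5H-OE arrays were in the same order as for HRD, with replicate 1 highest and replicate 2 lowest. AT2G14080 had 64.6, 52.5 and 47.2 in F5H-OE, against 105 and 101 in fah-1 and 110, 87.7 and 89.9 in WT. AT5G39090 had 192, 154 and 170 in F5H-OE, against 317 and 394 in fah-1 and 370, 298 and 337 in WT. Their log2 fold changes from WT, -1.63, -0.81 and -0.96, were smaller than that of HRD. No listed AP2/ERF gene was among them: the closest of the 32 listed ones compared were ORA47 (r = 0.86, rank 203), AT4G32800 (r = 0.77, rank 524) and AT4G39780 (r = 0.74, rank 687).

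**Figure D5:**
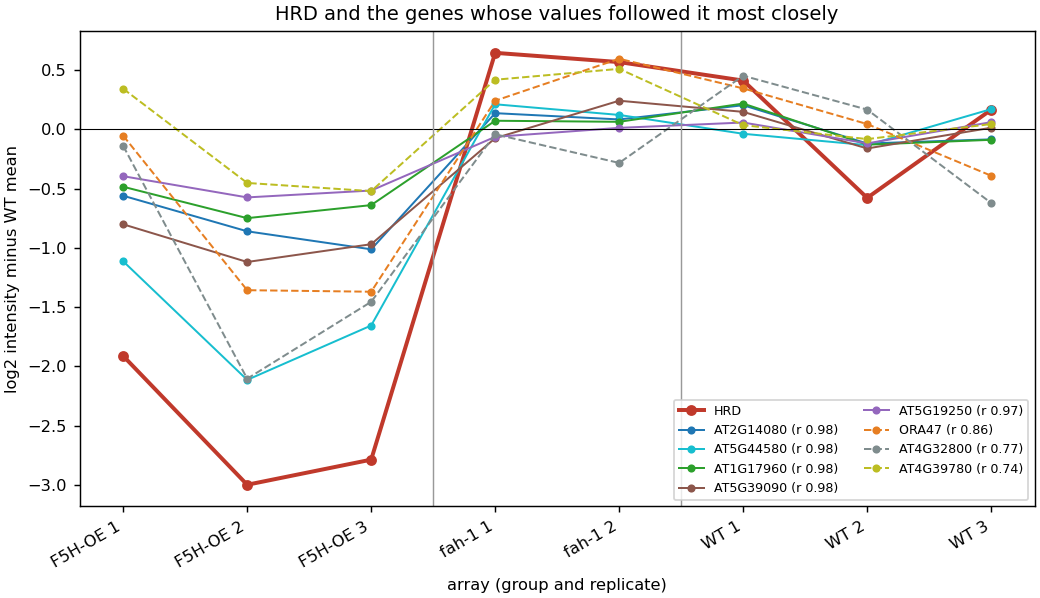
Log2 intensity minus the WT mean (vertical axis) in each array (horizontal axis, by group and replicate) for HRD (thick red line), the 5 genes most like it (solid lines) and the 3 AP2/ERF genes most like it (dashed lines); lines only join the points of a gene. HRD and the 5 genes are below their WT mean on all F5H-OE arrays, whereas AT4G39780 is above it on F5H-OE replicate 1.

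Of the 5 nearest named genes on each side of HRD along its chromosome, 0 of 10 passed by limma in F5H-OE against WT, with 2 at an unadjusted p under 0.05, against 3989 of 22746 probe sets. Their log2 fold changes were -0.17 to 0.36. The nearest on either side were AT2G36440 at 0.15 ± 0.11 (SE), which was near the background level, and AT2G36470 at -0.17 ± 0.16 (SE). AT2G36470 had intensities of 29.1, 33.2 and 32.7 in F5H-OE, against 29.6 and 46.4 in fah-1 and 40.2, 33.3 and 33.5 in WT, so that its F5H-OE values lay only just below the WT range. The log2 fold change farthest from 0 was that of AT2G36370, at 0.36 ± 0.11 (SE, adjusted p = 0.14).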

How the data were processed

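The deposited table holds a linear intensity for each probe set and array, and the labels' protocols describe 1-colour Affymetrix arrays of biotin-labelled cRNA. RMA was used, per the submitters' processing notes, which give no version. Since RMA returns log2 values, these were presumably unlogged. RMA equalises array quantiles and would hide a shift common to most transcripts. The 64 control probe sets were left out, and log2 of the intensity was taken with no pseudocount and no detection filter. Genes were named through the platform annotation, updated by gene identifier from a TAIR10.1 gene table. Of 22746 probe sets, 13513 had 1 gene, 503 had several and 8730 had none in the annotation. The brightest probe set with 1 gene stood for each gene, and each measured member had just 1.

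The test was limma's (version 3.58.1, under R 4.3.3), 2-sided, with lmFit and eBayes on a model of 3 group means over 8 arrays. Its p-values were adjusted by Benjamini and Hochberg's method across the 22746 probe sets, and an adjusted p under 0.05 passed. SE is limma's moderated SE, SD is between arrays. The fit was tested on simulated data. The samples are labelled as biological replicates.

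The members and gene lists were chosen with earlier results of these data known. The rule for named genes took all members, the 2 genes of each of the other lists with the largest change in F5H-OE against WT and any past the threshold, the 5 genes most like HRD and the 3 most like it of the AP2/ERF lists. Named outside it, after their values were seen, were the neighbours of HRD, SWEET11, TINY2, DI21, COR15A, COR47, AT1G64380 and the stem markers. Of 114 genes on the other lists 31 were measured. Background level means the highest of 3 TrpnX control probe sets on an array.

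Alternatives were arrays recentred or quantile normalized again, filters on dim probe sets, 16 added before log2, array weights, a trended or a robust spread, a fit of 2 groups, leaving out each array and blocking on replicate number.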

Additional observations from a re-analysis of the deposited data

How the results depend on the processing

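HRD was lower in F5H-OE in all 18 alternatives, with log2 fold changes of -2.89 to -2.28 against WT and -3.50 to -2.86 against fah-1. The F5H-OE arrays are those by which HRD was chosen, so these ranges are a description and no test. Settings such as the filters or the spread estimates cannot change a log2 fold change. In fah-1, HRD stayed above WT, at 0.32 to 0.81, without passing. In F5H-OE against WT, 0 other members passed in the main setting, 1 with arrays recentred and 1 with quantile normalization (AT4G16750 in both), 3 with array weights, 2 with the replicate block (AT3G60490, adjusted p = 0.041, and AT4G16750, adjusted p = 0.015) and 0 to 2 with 1 array left out. Against fah-1 these counts were 2 with array weights and 0 to 1 with 1 array left out. Genes of the other lists passed in 2 cases with array weights and 0 to 4 with 1 array left out, in F5H-OE against WT and against fah-1 alike. In fah-1 against WT no member or list gene passed in any setting. The main fit did not take the replicate numbers to pair the samples. Deviations of same-numbered F5H-OE and WT arrays correlated at 0.172, 0.333 and -0.025. Differently numbered arrays were not compared in this way, so these values do not settle whether the samples are paired.

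Over all probe sets, 603 passed in F5H-OE against WT, and 237 to 1758 with 1 array left out, 2526 with array weights, 401 with the block and 379 in a fit of 2 groups. Against fah-1 the numbers were 449, 69 to 1554, 2878, 229 and 274, and in fah-1 against WT 2, with 1 to 3 over the alternatives. The annotation named no second probe set for any measured member, so that alternative was not run. With 1 fah-1 array left out, the lone array was taken to have the spread of F5H-OE and WT. The dim members AT1G33760 and AT1G77200 are limited by background, and the filter on the brighter probe sets kept 4 of the 8 members other than HRD.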
